A study of Mus musculus with 4 samples.

Results

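The genes of calcium channels, calcium stores and calcium pumps were described in whole uteri of pregnant mice. A gene was included when it was protein-coding and its symbol began with Cacn, or with Trpc, Trpm, Trpv, Itpr, Ryr, Orai, Stim, Atp2a or Atp2b followed by a digit, or was Ano1, Pln or Sln. This held for 70 of the 55421 genes in the count files, and 43 of the 70 had at least 1 CPM (the count scaled to a common library total) in at least 2 libraries, as had 14492 genes in all. The symbol rule also takes Trpc4ap, which encodes a protein that binds a TRPC channel and is no channel itself, and Trpc5os, which lies on the opposite strand of Trpc5. The antisense transcript Itpr3os carries a fitting symbol but was not included because it is not protein-coding.

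The RNA came from uteri taken at E18.5 from 2 WT mice of the strain C57BL/6J and 2 Qa-2- mice of the strain B6.Cg-H2b3/FlaCmwJ, which lack the nonclassical MHC molecule Qa-2. A small piece of each frozen uterus was powdered and gave 1 poly(A) library per mouse. The Qa-2- strain, also called B6.K1, is congenic for the H2 region and came out of crosses between H2 congenic strains, so that a difference between the groups is one between strains. Counts of H2-Q6, a gene that encodes Qa-2, were 4204 and 1192 in the WT libraries against 3 and 3 in the Qa-2- libraries. The libraries held 33286390 to 41041299 counted read pairs, so that a floor of 3 counts lay at 0.0731 to 0.0901 CPM. In bulk RNA of a whole organ, fewer cells of a type and less RNA per cell cannot be told apart. The values of a group are given for replicate 1 and then replicate 2, as CPM on library sizes scaled by TMM normalisation unless another scale is named.

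In smooth muscle of the uterus, calcium enters through voltage-gated channels and is released from the sarcoplasmic reticulum through IP3 receptors, and the rise in cytosolic calcium drives contraction. Pumps then return calcium to the store (SERCA) or carry it out of the cell (PMCA), while STIM sensors in the store membrane open ORAI channels when the store runs low. In epithelia, calcium passes across the cell layer by entering through TRPV channels, binding to calbindin and leaving through PMCA pumps.

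The promoters of 4 genes are printed here because their genes stand at either end of the comparison, Trpv6 and Trpm6 with the most negative and Stim1 and Ano1 with the most positive log2 fold change, always taken as WT over Qa-2-. The sequences are from RefSeq on GRCm38.p6, run 5′ to 3′ along the gene from 250 bases before to 50 bases after the RefSeq start, and carry the GC box motif GGGCGG, on either strand, in capitals. Trpv6 lies on the minus strand at chr6:41636356-41636655, Trpm6 on the plus strand at chr19:18749480-18749779, Stim1 on the plus strand at chr7:102267569-102267868 and Ano1 on the minus strand at chr7:144738524-144738823. The window of Ano1 lies inside the limits that the count files give for that gene.
Trpv6: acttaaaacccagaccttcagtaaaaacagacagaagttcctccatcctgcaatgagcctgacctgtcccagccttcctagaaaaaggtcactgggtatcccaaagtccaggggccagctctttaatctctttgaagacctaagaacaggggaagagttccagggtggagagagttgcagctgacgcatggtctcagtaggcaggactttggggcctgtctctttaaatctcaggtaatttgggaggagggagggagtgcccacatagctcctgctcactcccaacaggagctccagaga
Trpm6: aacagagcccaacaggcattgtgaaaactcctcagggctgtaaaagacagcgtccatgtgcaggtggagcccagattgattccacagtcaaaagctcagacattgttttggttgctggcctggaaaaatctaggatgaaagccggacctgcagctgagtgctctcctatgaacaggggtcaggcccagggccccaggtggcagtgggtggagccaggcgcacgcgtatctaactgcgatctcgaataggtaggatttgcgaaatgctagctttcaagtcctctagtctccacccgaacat
Stim1: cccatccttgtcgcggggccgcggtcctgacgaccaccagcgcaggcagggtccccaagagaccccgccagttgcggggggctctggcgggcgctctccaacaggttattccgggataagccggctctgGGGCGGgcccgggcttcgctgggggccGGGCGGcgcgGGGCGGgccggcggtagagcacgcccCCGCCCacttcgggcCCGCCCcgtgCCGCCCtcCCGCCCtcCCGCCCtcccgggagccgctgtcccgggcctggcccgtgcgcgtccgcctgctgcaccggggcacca
Ano1: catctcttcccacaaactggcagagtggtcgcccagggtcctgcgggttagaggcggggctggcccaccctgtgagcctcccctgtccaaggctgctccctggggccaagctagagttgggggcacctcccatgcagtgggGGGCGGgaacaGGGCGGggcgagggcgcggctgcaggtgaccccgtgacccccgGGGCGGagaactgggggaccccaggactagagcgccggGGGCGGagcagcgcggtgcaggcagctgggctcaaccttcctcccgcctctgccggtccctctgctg
The Stim1 window held 8 GC boxes and the Ano1 window held 4, whereas the windows of Trpv6 and Trpm6 held 0. Other genes with a negative log2 fold change did hold GC boxes. Among them, the Trpv4 window held 3, that of Cacna2d3 6, that of Itpr2 5 and those of Atp2b2 3, 0 and 2. Of the 43 genes, 34 had an entry in the promoter table, with 46 promoters between them. A GC box was found in 28 of these 46 promoters (60.9%), beside 35.7% of all 32851 promoters in the table. The 43 genes had passed a filter on level, whereas the promoters of the table were not filtered by level. For Cacna2d1, Cacna2d3, Cacna1c, Cacna1d, Itpr2, Atp2a3 and Cacnb1, the window with the most held between 5 and 7, and Cacna1c, Cacna1d and Cacnb1 also had windows with 0. TATAAA stood in 10.9% of the member promoters beside 13.6% of all, and the E box CANNTG in 76.1% beside 72.3%. The CArG box, to which serum response factor binds in smooth muscle genes, matched 1 of the 46, in Trpc6, beside 1.63% of all. Matches were sought on both strands, and matches of a motif that covered the same bases on both strands were counted as 1. Matches that overlapped only in part were each counted, and those of different motifs may overlap. All of them describe letters in these windows and not bound sites.

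Levels were compared between genes per length with TPM, in which counts are divided by gene length and scaled to the same sum in every library. The store pump Atp2a2 (SERCA2) had the highest mean over the 4 libraries at 166 TPM, followed by the plasma membrane pump Atp2b4 (PMCA4) at 99.5 TPM. Next came the epithelial calcium channel Trpv6 at 58.2 TPM and the store-operated channel Orai3 at 51.3 TPM. The place of Trpv6 rested on 1 library, since its level was 149 TPM in Qa-2- replicate 2 and 15.8 to 44.4 TPM in the others. Orai3 lay between 47.5 and 56.9 TPM in all 4 libraries, a range that Atp2b4, at 61.5 to 141 TPM, did not reach. Of the genes that followed, Trpc4ap, Stim1, Trpv4, Cacng7 and Atp2b1 had means of 32.7 to 37.0 TPM and could not be ordered beyond their spread. At the lower end stood the R-type pore Cacna1e at 0.603 TPM, the ADP-ribose-activated channel Trpm2 at 0.292 TPM and the heart ryanodine receptor Ryr2 at 0.117 TPM.

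**Figure D1:**
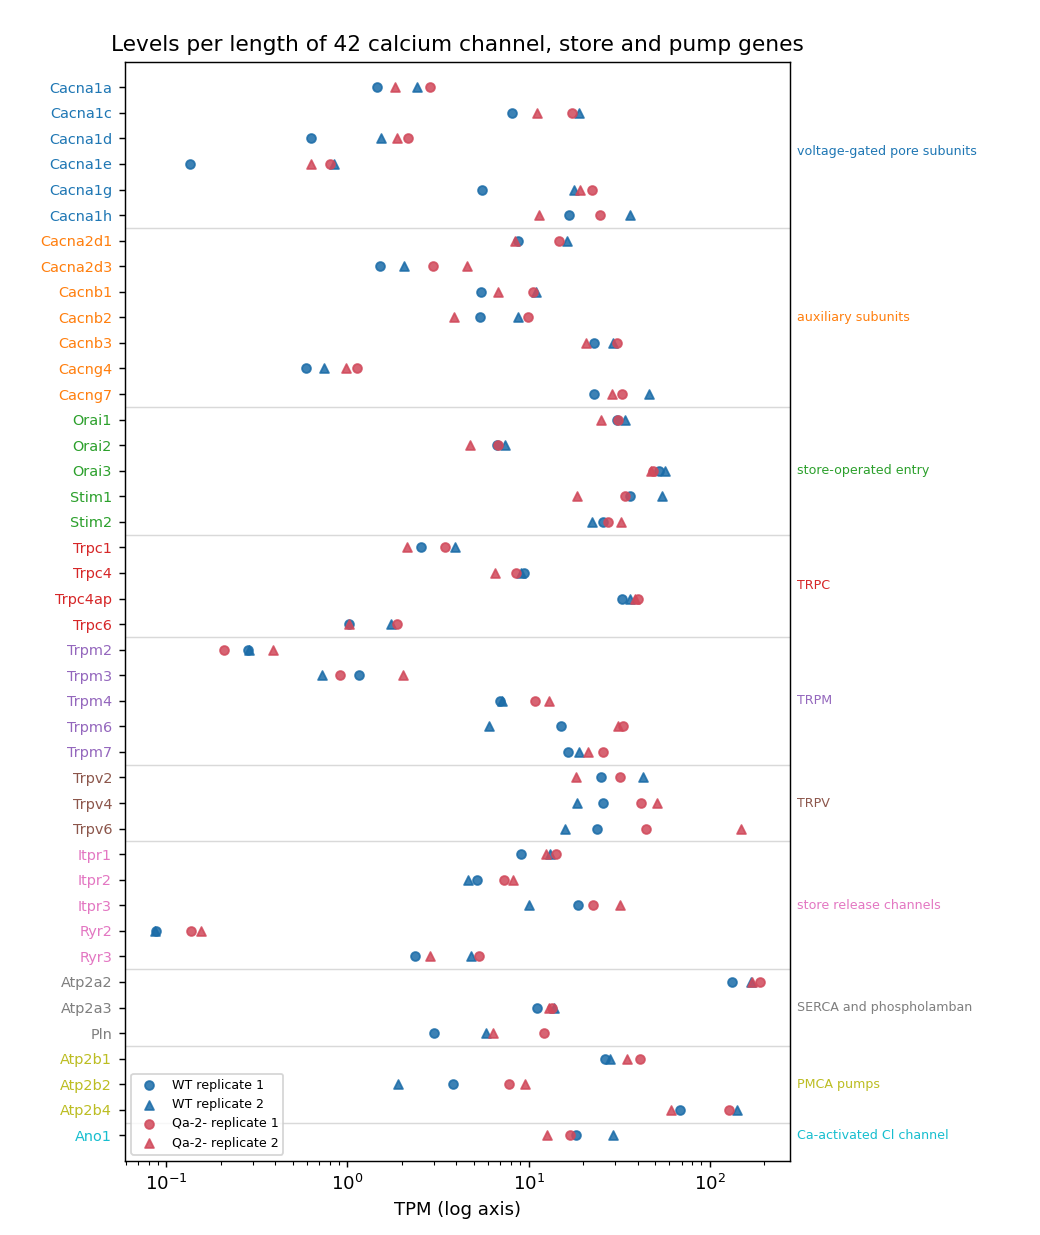
Level per length of 42 of the 43 genes in each of the 4 libraries, on a logarithmic TPM axis, grouped by role; blue marks WT, red marks Qa-2-, circles replicate 1 and triangles replicate 2. Atp2a2 is highest at 133 to 190 TPM, Ryr2 is lowest at 0.0867 to 0.155 TPM, and for Trpv6 the library of Qa-2- replicate 2 stands apart at 149 TPM.

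Of the 70 genes, 27 did not pass the filter, and 7 of these had 0 counts in every library. These 7 were the gamma subunits Cacng2, Cacng3, Cacng5 and Cacng6, the channels Trpc2 and Trpc5, and sarcolipin (Sln), an inhibitor of the muscle SERCA pump. The fast-muscle pump Atp2a1 had at most 12 counts in a library, and the skeletal muscle pore Cacna1s at most 27. Of the 43 genes that passed, 40 had at least 1 CPM in all 4 libraries. Cacng4 and Ryr2 passed through the Qa-2- libraries alone, just inside the threshold, Cacng4 with 0.755 and 0.863 CPM in WT and 1.29 and 1.20 CPM in Qa-2- uteri and Ryr2 with 0.902 and 0.812 against 1.26 and 1.53 CPM, here on unscaled library totals. Just outside it lay Ryr1, the skeletal muscle ryanodine receptor, with 2.08 CPM in WT replicate 2 alone and 0.573 to 0.828 CPM in the others. Cacna2d4, with 1.42 CPM in the same WT library, and Trpv5, with 1.41 CPM in Qa-2- replicate 2, likewise reached 1 CPM in 1 library. Genes that entered through one group had to differ in that direction, so counts over the 43 genes carry this limit.

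Expression in WT and Qa-2- uteri was then compared for each gene with the quasi-likelihood test of edgeR, and p-values were adjusted by Benjamini-Hochberg over all 14492 genes. None of the 43 genes reached an adjusted p under 0.05, as was the case for all genes tested (0.0%), and the smallest adjusted p of the 43 by this test was 0.274. At an unadjusted p under 0.05, 7 of the 43 (16.3%) were lower in WT beside 7.09% of all genes, and 2 (4.65%) were higher beside 8.09%. The 7 were Trpv6, Trpm6, Atp2b2, Cacna2d3, Trpv4, Trpm4 and Itpr2, and the 2 were Stim1 and Ano1. DESeq2's Wald test gave an adjusted p under 0.05 for Trpv6, Atp2b2 and Trpm6, all lower in WT (3 of 43, beside 2.04% of all genes), and for 0 genes that were higher (beside 2.79%). Over all alternatives, the adjusted p ran from 0.00453 to 0.818 for Trpv6, from 0.0195 to 0.818 for Atp2b2 and from 0.0355 to 0.818 for Trpm6, the highest without Qa-2- replicate 2. Without Qa-2- replicate 2, 2 of the 43 genes had an unadjusted p under 0.05 instead of 9, beside 5.64% of all genes in that fit, and of the 9 this was Trpv6 alone. There were 12 without WT replicate 1, beside 15.8% of all genes, and 12 without Qa-2- replicate 1, beside 12.3%. Both WT libraries lay below both Qa-2- libraries for 16 genes (37.2%, beside 24.5% of all genes) and above them for 6 (14.0%, beside 25.4%), while the groups overlapped for 21. The log2 fold changes had a median of -0.05 for the 43 genes and 0.01 for all genes, with a range over the 43 from -2.15 to 0.92. For single genes, exact permutation of 2 against 2 mice cannot give a p below 0.33.

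**Figure D2:**
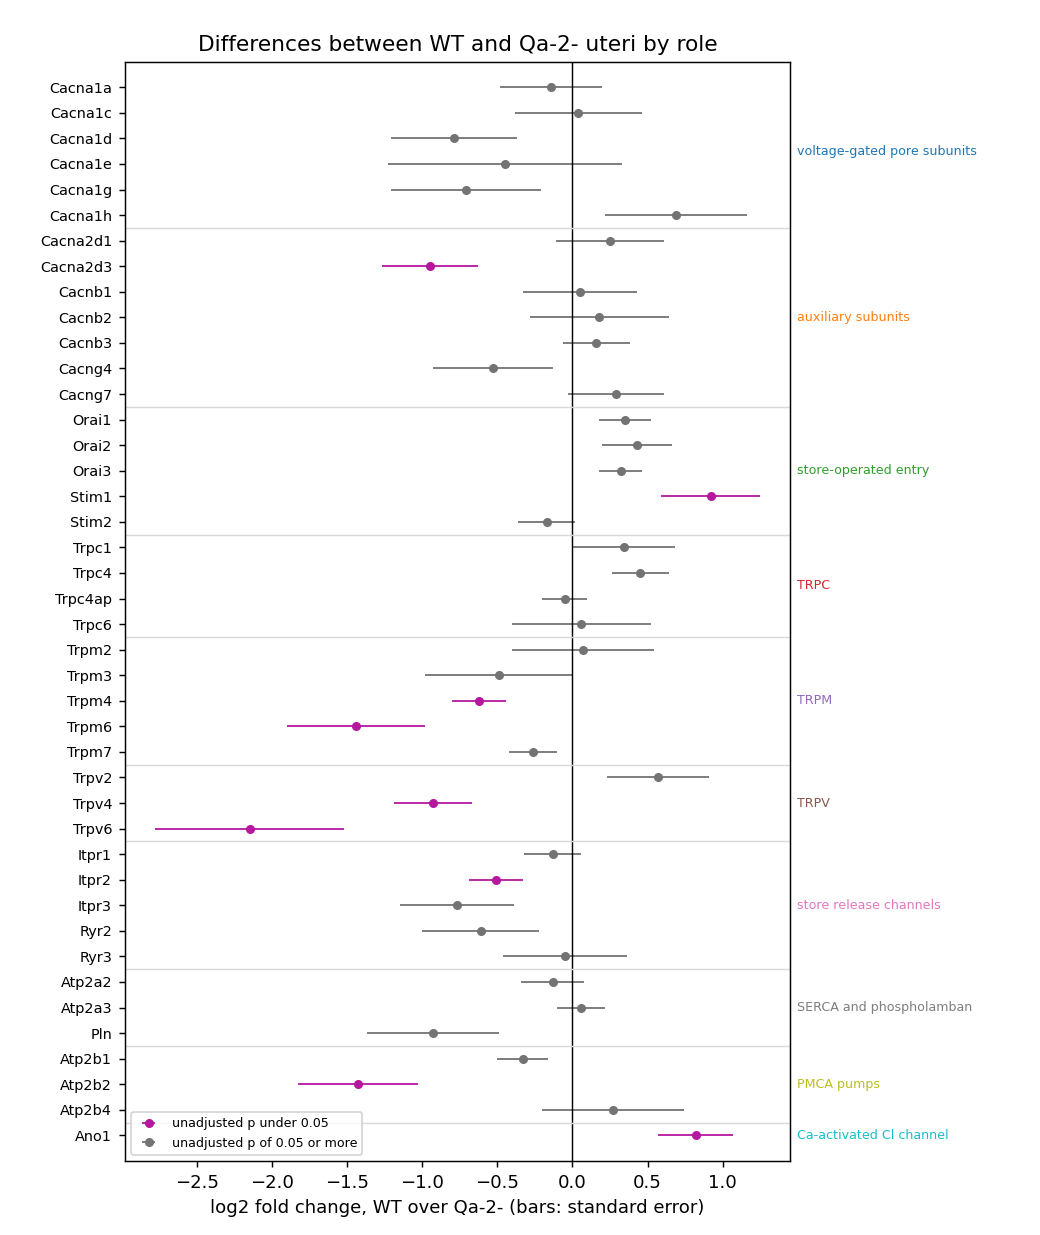
Log2 ratio of WT to Qa-2- as fitted, and its standard error for 42 of the 43 genes, grouped by role; coloured points have an unadjusted p under 0.05 in edgeR's quasi-likelihood test. The points run from -2.15 for Trpv6 to 0.92 for Stim1. Of the 5 store-operated entry genes, 4 lie right of 0.

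Among the TRPV channels, Trpv6, the highly calcium-selective channel through which epithelia take up calcium, had 34.3 and 21.1 CPM in WT and 54.9 and 192 CPM in Qa-2- uteri. Both Qa-2- values lay above both WT values, and Qa-2- replicate 2 stood far above the other Qa-2- library. The fitted level was 4.45-fold higher in Qa-2- uteri, which is -2.15 ± 0.63 (SE) on the log2 scale, with an adjusted p of 0.276 in edgeR and of 0.00453 in DESeq2. It was -0.98 when Qa-2- replicate 2 was left out. Trpv4, a channel opened by cell swelling and stretch, had 38.4 and 25.6 CPM in WT against 53.3 and 68.6 CPM in Qa-2- uteri. The groups did not overlap, and the log2 fold change was -0.93 ± 0.26 (SE), with an adjusted p of 0.274 in edgeR and of 0.058 in DESeq2. The mechanosensitive channel Trpv2 had 41.4 and 65.6 CPM in WT against 44.9 and 26.9 CPM in Qa-2- uteri, with overlapping groups. In TPM, the whole family summed to 75.1 and 77.4 in WT and to 118 and 220 in Qa-2- uteri, of which Trpv6 made up 31.6% and 20.4% against 37.5% and 67.7%. The share of Trpv2 was 33.5% and 55.5% in WT against 27.0% and 8.33%.

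Trpm6 and Trpm7 encode channels fused to a kinase that let magnesium and calcium pass. Trpm6 had 42.8 and 15.9 CPM in WT and 80.6 and 79.1 CPM in Qa-2- uteri. The Qa-2- libraries were close to each other and above both WT libraries, which differed among themselves. Its log2 fold change was -1.44 ± 0.46 (SE), with an adjusted p of 0.293 in edgeR and of 0.0355 in DESeq2, and lay between -2.36 and -0.90 when each library was left out in turn. Trpm7 had 68.6 and 73.6 CPM in WT against 91.8 and 78.5 CPM in Qa-2- uteri, again without overlap, and a log2 fold change of -0.26 ± 0.16 (SE). Trpm4, which carries monovalent cations once cytosolic calcium rises and so depolarises the cell, had 27.6 and 26.3 CPM in WT against 36.9 and 46.2 CPM in Qa-2- uteri. Here the WT libraries lay close together below both Qa-2- libraries, with a log2 fold change of -0.62 ± 0.18 (SE) and an adjusted p of 0.275 in edgeR. Trpm3, a channel of low level opened by heat and steroids, and Trpm2 had overlapping groups.

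The uterine epithelium markers are given beside Trpv6, Trpv4 and Trpm6. Of these markers 3 had an unadjusted p under 0.05 in edgeR, all lower in WT (beside 7.09% of all genes). None had an adjusted p under 0.05 in edgeR (beside 0.0%), while 2, both lower in WT, had such a p in DESeq2 (beside 2.04%). Both WT libraries lay below both Qa-2- libraries for 7 (beside 24.5%), and the groups overlapped for 4. Foxa2, among the 3, passed the filter through the Qa-2- libraries alone, so its direction was fixed by it. It had 0.512 and 0.609 CPM in WT against 1.32 and 1.41 CPM on unscaled library totals. All 11 markers listed were detected, and none was at or under the floor. All 11, with Foxa2 counted, had a negative log2 fold change (beside 7092 of all 14492 genes), with a median of -0.85. Their summed level was 4090 and 2260 CPM in WT against 3920 and 12600 CPM in Qa-2- uteri, where the secreted proteins Ltf and Lcn2 alone gave 4940 and 4650 CPM in replicate 2. The 9 other markers summed to 2190 and 1300 CPM in WT against 3040 and 2980 CPM in Qa-2- uteri, which is the order of the libraries in which Trpm6 stood. Trpv6 had its highest level in the library in which Ltf and Lcn2 were highest. The part of the epithelium in these differences was not tested.

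Of the PMCA pumps, which carry calcium out of the cell, Atp2b2 had 17.8 and 8.18 CPM in WT and 30.9 and 39.3 CPM in Qa-2- uteri. Both Qa-2- libraries lay above both WT libraries, with a log2 fold change of -1.43 ± 0.40 (SE) and an adjusted p of 0.274 in edgeR and of 0.0195 in DESeq2. Leaving out each library in turn gave values between -2.13 and -0.98. Atp2b1, the widely expressed member, had 148 and 146 CPM in WT against 196 and 175 CPM in Qa-2- uteri (log2 fold change -0.33 ± 0.17, SE). The groups did not overlap, although the unadjusted p in edgeR was 0.110. Atp2b4 had the most counts of the family, with 306 and 586 CPM in WT and 491 and 247 CPM in Qa-2- uteri. Each group held a high and a low library, and the fitted log2 fold change was 0.27 ± 0.47 (SE). In TPM, Atp2b4 made up 58.0% to 82.3% of the family, and Atp2b2 made up 3.90% and 1.12% in WT against 4.41% and 8.97% in Qa-2- uteri.

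**Figure D3:**
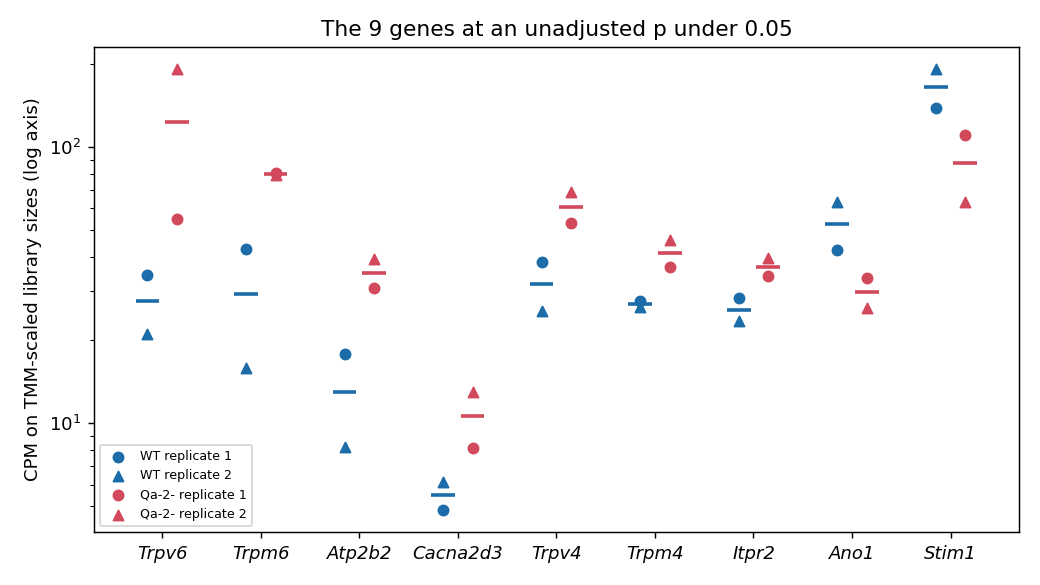
CPM on TMM-scaled library sizes, on a logarithmic axis, of the 9 genes with an unadjusted p under 0.05; circles are replicate 1, triangles replicate 2 and bars the mean of each group. Both WT values lie below both Qa-2- values for the first 7 genes and above them for Ano1 and Stim1, and the largest distance within a group is that of Trpv6 in Qa-2- uteri, from 54.9 to 192 CPM.

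The store-operated entry genes mostly ran the other way. Stim1, the main sensor of calcium in the store, had 138 and 192 CPM in WT and 111 and 63.3 CPM in Qa-2- uteri. Both WT libraries were above both Qa-2- libraries, and the fitted level was 1.89-fold higher in WT, with a log2 fold change of 0.92 ± 0.33 (SE) and an adjusted p of 0.313 in edgeR. It lay between 0.57 and 1.38 when each library was left out in turn, the lower value without Qa-2- replicate 2. Orai3 had 41.1 and 41.5 CPM in WT against 32.7 and 33.3 CPM in Qa-2- uteri. Here the libraries of a group differed little, and the log2 fold change was 0.32 ± 0.14 (SE) with an unadjusted p of 0.0713 and an adjusted p of 0.361 in edgeR. The pore genes Orai1 (log2 fold change 0.35 ± 0.17, SE) and Orai2 (0.43 ± 0.23, SE) also had both WT libraries above both Qa-2- libraries. Stim2, the sensor that responds to small falls in the store, had 48.7 and 39.3 CPM in WT against 44.5 and 54.2 CPM, and its groups overlapped. So 4 of the 5 genes had WT libraries above Qa-2- libraries, beside the 25.4% of all genes.

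Stim1 and Stim2 were also compared as shares. Of the summed TPM of Stim1 and Stim2, Stim1 made up 58.3% and 70.7% in WT and 55.3% and 36.6% in Qa-2- uteri, so that the groups did not overlap but WT replicate 1 and Qa-2- replicate 1 were close. Over the 4 libraries, Orai3 made up 56.2% to 61.3%, Orai1 32.5% to 35.9% and Orai2 6.17% to 7.86% of the summed TPM of the ORAI genes.

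Ano1 encodes the chloride channel that calcium opens in smooth muscle, pacemaker-like interstitial cells and glands. It had 42.5 and 63.2 CPM in WT and 33.7 and 26.2 CPM in Qa-2- uteri. Both WT libraries were above both Qa-2- libraries, with a log2 fold change of 0.82 ± 0.25 (SE) and an adjusted p of 0.286 in edgeR. Values between 0.50 and 1.05 resulted when each library was left out. The smooth muscle markers are given beside Ano1 and Stim1. None of the 10 had an unadjusted p under 0.05 in edgeR (beside 8.09% of all genes higher in WT and 7.09% lower). An adjusted p under 0.05 in DESeq2 was found for 2, both higher in WT (beside 2.79%). Both WT libraries lay above both Qa-2- libraries for 6 (beside 25.4%), and the groups overlapped for 4. Of the 10 smooth muscle markers, 9 had a positive log2 fold change (beside 7400 of all 14492 genes), with a median over the list of 0.90. Their summed level was 27600 and 46000 CPM in WT against 24900 and 13300 CPM in Qa-2- uteri. The order of the 4 libraries in this sum was that of Stim1 and of Ano1. The 3 markers of interstitial cells summed to 52.8 and 72.3 CPM against 30.0 and 20.0 CPM, most of it Thbs4 (38.1 and 61.4 against 17.2 and 8.25 CPM), while the groups overlapped for Kit and Etv1. The 7 endothelial markers summed to 1190 and 1020 CPM against 513 and 489 CPM. All 7 were higher in both WT libraries (beside 25.4% of all genes) and had an unadjusted p under 0.05 in edgeR (beside 8.09%). Of the 7, 6 had an adjusted p under 0.05 in DESeq2 (beside 2.79%). The part of these cells in the values of Stim1 and Ano1 was not tested.

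The log2 fold changes of the 5 store release channels that passed the filter ran from -0.77 to -0.05. The sign of Ryr2 was fixed by the filter, which it passed through the Qa-2- libraries alone, and Ryr1, just outside the filter, had 0.849 and 2.18 CPM in WT against 0.565 and 0.688 CPM in Qa-2- uteri. Negative values were found for 7092 of all 14492 genes. The IP3 receptors open when receptors of the cell surface activate phospholipase C. Itpr2 had 28.3 and 23.4 CPM in WT and 34.1 and 39.8 CPM in Qa-2- uteri. Both WT libraries were below both Qa-2- libraries, with a log2 fold change of -0.51 ± 0.18 (SE), an unadjusted p of 0.0356 and an adjusted p of 0.308 in edgeR. Itpr3, the form typical of epithelia, had 61.9 and 30.8 CPM in WT against 64.4 and 94.2 CPM. The distance between the groups was small for WT replicate 1 and Qa-2- replicate 1, and the log2 fold change of -0.77 ± 0.38 (SE) went to -0.36 without WT replicate 2 and to -1.39 without WT replicate 1. Itpr1, the form typical of smooth muscle and neurons, had 61.4 and 81.6 CPM in WT against 81.3 and 75.1 CPM, with overlapping groups. In TPM, Itpr3 was the largest of the 3 receptors in WT replicate 1 (56.6%) and in both Qa-2- libraries (51.4% and 60.6%), whereas Itpr1 was the largest in WT replicate 2 (47.1%, beside 36.2% for Itpr3). The share of Itpr2 lay between 15.6% and 16.7% in all 4 libraries. Ryr3 made up 91.9% to 96.0% of the summed TPM of the ryanodine receptors, with 16.5 and 31.3 CPM in WT and 31.7 and 17.7 CPM in Qa-2- uteri.

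SERCA pumps fill the store. Atp2a2 had 297 and 349 CPM in WT and 363 and 343 CPM in Qa-2- uteri, with overlapping groups and a log2 fold change of -0.13 ± 0.21 (SE). Its share in the summed TPM of the 3 SERCA genes was 92.1% to 93.3%. Atp2a3, found in epithelia, endothelium and blood cells, had 21.7 and 24.9 CPM against 22.2 and 22.6 CPM. Phospholamban (Pln), which holds SERCA2 back until it is phosphorylated, had 3.05 and 5.50 CPM in WT against 10.4 and 5.79 CPM in Qa-2- uteri. The highest WT and the lowest Qa-2- value almost met, and the log2 fold change was -0.93 ± 0.44 (SE) with an unadjusted p of 0.0897 in edgeR. It was -0.44 without Qa-2- replicate 1, -0.59 without WT replicate 1 and -1.42 without WT replicate 2. The summed level of the heart muscle markers, another tissue with much phospholamban, was 7.36 and 15.9 CPM against 31.3 and 13.2 CPM. Most of it in 3 of the 4 libraries was Tnnt2 (3.27 and 10.2 against 28.4 and 11.4 CPM), whereas Nppa and Myl7 were higher in both WT libraries and Myh6 was at or under the floor in every library. The part of heart muscle RNA in the values of Pln was not tested.

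Of the 6 pore subunits of voltage-gated channels that passed the filter, 4 had overlapping groups and 2 were lower in both WT libraries, beside 24.5% of all genes. Cacna1c, the L-type pore that carries most of the calcium for contraction, had 62.6 and 137 CPM in WT and 116 and 77.9 CPM in Qa-2- uteri. WT held both the lowest and the highest library, and the log2 fold change was 0.04 ± 0.42 (SE). Its direction turned with the library left out, from -0.63 without WT replicate 2 to 0.47 without WT replicate 1. The T-type pores Cacna1g and Cacna1h open at more negative potentials. Cacna1g had 20.7 and 61.7 CPM in WT against 71.1 and 63.7 CPM in the Qa-2- libraries. WT replicate 1 was the low library, and without WT replicate 2 the log2 fold change went from -0.71 ± 0.50 (SE) to -1.71, with an adjusted p of 0.0475 in edgeR (0.0475 to 0.831 over all alternatives), while without WT replicate 1 it was -0.15. Cacna1h had 60.0 and 121 CPM in WT and 75.7 and 36.5 CPM in Qa-2- uteri, where the groups overlapped, with a log2 fold change of 0.69 ± 0.47 (SE). It was 0.10 without WT replicate 2 and 1.31 without Qa-2- replicate 1. The L-type pore Cacna1d had 3.52 and 7.89 CPM against 10.3 and 9.40 CPM, with both WT libraries the lower ones. Cacna1e had 1.25 CPM in WT replicate 1 and 5.19 to 7.25 CPM in the 3 other libraries.

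The pores were also compared as shares. The summed TPM of the 10 pore genes was 33.1 and 78.6 in WT and 70.6 and 46.6 in Qa-2- uteri. Cacna1c made up 24.1% to 24.6% of it in all 4 libraries. The T-type pores Cacna1g, Cacna1h and Cacna1i together made up 65.7% to 69.2%, but their split differed between the groups. Cacna1h held 50.7% and 46.4% in WT and 34.9% and 24.5% in Qa-2- uteri, and Cacna1g held 16.8% and 22.7% against 31.6% and 41.2%. For both genes the groups did not overlap, and this was seen only after the values of both had been viewed. No test was run on the shares.

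**Figure D4:**
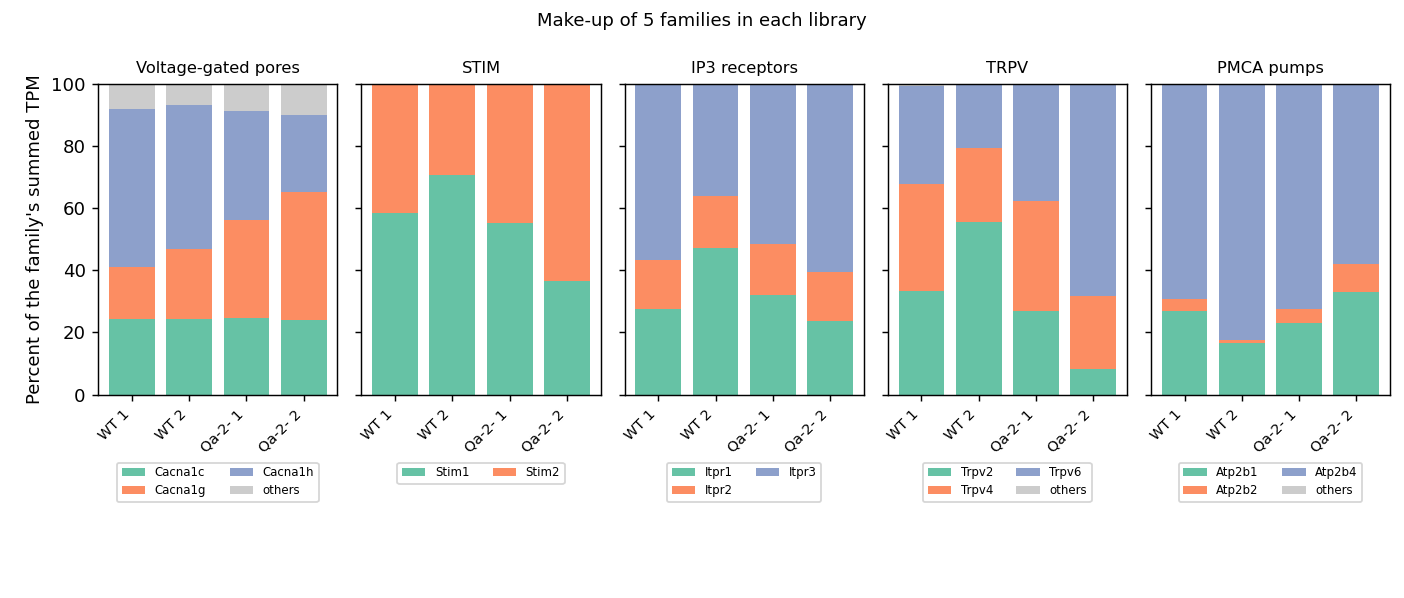
Percent of the summed TPM that each gene gives in 5 families, in each of the 4 libraries. Cacna1c holds 24.1% to 24.6% of the voltage-gated pores throughout, Cacna1h takes 50.7% and 46.4% in WT but 34.9% and 24.5% in Qa-2- uteri, and Trpv6 reaches 67.7% of the TRPV genes in Qa-2- replicate 2.

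Auxiliary subunits set the trafficking and gating of these pores. Cacna2d3, an alpha2delta subunit, had 4.84 and 6.11 CPM in WT and 8.13 and 13.0 CPM in Qa-2- uteri. Both WT libraries were below both Qa-2- libraries, with a log2 fold change of -0.95 ± 0.32 (SE) and an adjusted p of 0.302 in edgeR. It was -0.57 without Qa-2- replicate 2. Cacnb3, the beta subunit with the highest TPM (59.5% to 67.4% of the 4 beta genes), had 33.9 and 40.0 CPM in WT against 38.6 and 27.3 CPM. Cacng7, known best as a regulator of glutamate receptors, had 20.6 and 38.5 CPM against 25.2 and 23.1 CPM. The groups overlapped for both, as they did for Cacna2d1, Cacnb1 and Cacnb2. WT replicate 2 exceeded WT replicate 1 for all 7 auxiliary genes that passed the filter.

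TRPC channels open after activation of receptors that signal through phospholipase C. Trpc4 had 28.0 and 25.0 CPM in WT against 21.6 and 17.2 CPM in Qa-2- uteri, without overlap, and a log2 fold change of 0.45 ± 0.19 (SE) with an unadjusted p of 0.0618 in edgeR. Trpc4ap, which is no channel, had 106 and 108 CPM against 111 and 111 CPM.

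Cacna1h and Itpr3 lie on chromosome 17, which carries the H2 region. Cacna1h spans 25374285 to 25433783 and Itpr3 spans 27057304 to 27122223 on GRCm38, 10.01 Mb and 8.32 Mb from H2-Q7. How far the congenic segment of the Qa-2- strain reaches was not tested, so strain and loss of Qa-2 cannot be told apart here.

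The distance between the 2 mice of a group had a common direction. WT replicate 2 was above WT replicate 1 for 30 of the 43 genes, beside 49.9% of all genes. Of the 43 genes, 27 (62.8%) were higher in WT replicate 2 than in WT replicate 1 and higher in Qa-2- replicate 1 than in Qa-2- replicate 2, beside 33.0% of all genes and 9 of 10 smooth muscle markers. All 6 pore subunits, 6 of the 7 auxiliary subunits, Stim1, Trpc1, Trpc6, Trpv2, Ryr3, Pln, Atp2b4 and Ano1 were among them. The opposite direction in both groups was seen for 10 genes (23.3%, beside 32.5% of all genes and 6 of 11 epithelial markers), namely Trpv6, Trpv4, Trpm2, Trpm3, Trpm4, Itpr2, Itpr3, Ryr2, Stim2 and Atp2b2. The median log2 difference of WT replicate 2 over replicate 1 was 0.78 for the smooth muscle markers, -0.82 for the epithelial markers and 0.23 for the 43 genes. For Qa-2- replicate 2 over replicate 1 the medians were -0.93, 0.26 and -0.17. This direction was noticed after the values were seen, and the part of the tissue piece taken was not tested.

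**Figure D5:**
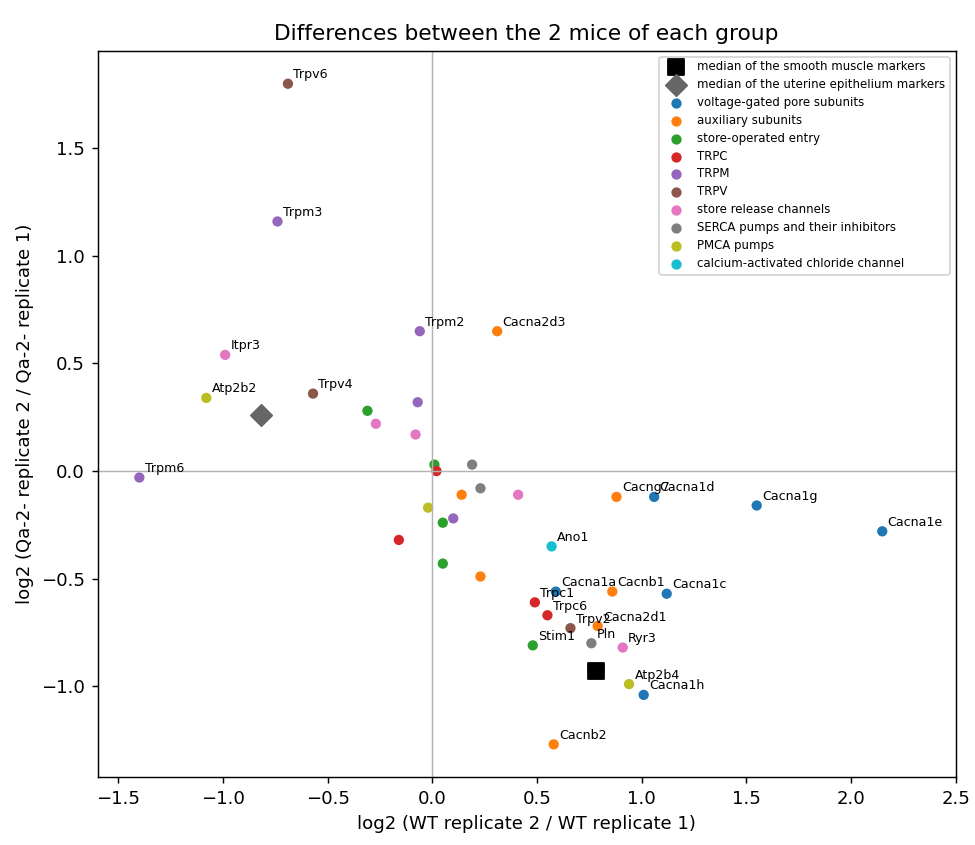
Log2 ratio of the 2 mice of a group, WT on the horizontal and Qa-2- on the vertical axis, for 42 of the 43 genes, coloured by role, with the medians of the smooth muscle and uterine epithelium markers. Of the genes plotted, 25 lie at the lower right, where the smooth muscle median stands, and 10 at the upper left, where the epithelial median stands, while Trpc4ap lies on the horizontal line.

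Genes of calcium handling outside the rule were taken from 6 lists, with 92 of 106 annotated genes passing the filter. None of the 92 reached an adjusted p under 0.05 in edgeR (beside 0.0% of all genes), 13 were higher in WT (beside 8.09% of all genes) and 6 lower (beside 7.09%) at an unadjusted p under 0.05, and DESeq2 called 2 higher (beside 2.79%) and 1 lower (beside 2.04%). Slc8a3 and Rem2, of the 6, passed the filter through the Qa-2- libraries alone. The median log2 fold change of all 92 genes was 0.19. The DESeq2 calls were the store protein Casq2 (calsequestrin, 30.8 and 40.1 CPM in WT against 18.3 and 7.16 CPM in Qa-2- uteri, adjusted p 0.0355, and 0.286 in edgeR), the calcium-binding protein S100a1 (116 and 75.8 against 45.6 and 47.6 CPM, adjusted p 0.0168, and 0.254 in edgeR) and Plce1, a phospholipase C (102 and 80.8 against 174 and 213 CPM, adjusted p 0.00217, and 0.246 in edgeR). Casq2 and S100a1 were higher and Plce1 was lower in WT, with no overlap of the groups.

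S100g, which encodes the calbindin that works with Trpv6 and PMCA pumps in epithelia, had 94.6 and 82.0 CPM in WT against 169 and 125 CPM in Qa-2- uteri. Its groups did not overlap, and the log2 fold change was -0.73 ± 0.22 (SE) with an unadjusted p of 0.0184 and an adjusted p of 0.280 in edgeR. Among calcium buffers, 4 of 6 genes had both WT libraries above both Qa-2- libraries and 1, S100g, below, beside 25.4% and 24.5% of all genes. Of the mitochondrial genes, 9 of 10 had a positive log2 fold change, beside 7400 of all 14492 genes. Of the regulators of channels and stores, 16 of 23 were positive, among them Jph2 (0.82 ± 0.34, SE), which ties the store to the cell membrane, and Asph (0.76 ± 0.23, SE). Of the 22 genes of calmodulin, kinases, calcineurin and NFAT, 10 had WT libraries above and 1 below the Qa-2- libraries, beside the same shares of all genes. Among phospholipase C and G protein genes, Plcg2 (-0.68 ± 0.16, SE) had both WT libraries below both Qa-2- libraries, like Plce1, and Gna11 and Plcg1 had them above. Of entry and exchange genes, 7 of 20 lay above and 4 below, beside the same shares, the latter with P2rx6 (-0.90 ± 0.27, SE) and Atp2c2 (-0.77 ± 0.43, SE). P2rx1 among those above passed the filter through WT alone, and Slc8a3 among those below through Qa-2- alone, so their directions were fixed by it.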

How the data were processed

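RNA sequencing of uterus pieces from 2 WT and 2 Qa-2- mice was used. The deposited values are counts of read pairs per gene, made by the authors with featureCounts 2.0.0 per the file headers, with reverse-strand counting, without multi-mapping pairs and without normalization. The submitters' processing notes also name STAR 2.7.3a and GRCm38.p6. Symbols were taken from GENCODE M21, which held 55240 of 55421 identifiers. Genes with at least 1 CPM from library totals in at least 2 libraries were compared with edgeR 4.0.16 in R 4.3.3 (TMM, glmQLFit, glmQLFTest, no block), with Benjamini-Hochberg adjustment over all genes kept. An SE is the size of the log2 fold change divided by the square root of F. TPM used the length column of the count files. DESeq2 1.42.0, other normalizations and filters, a replicate block and leaving out each library were alternatives. The labels do not say more of the replicates than that they are separate mice, and the 2 libraries of a group differed by more than sampling noise (140.9 and 84.61 chi-square per gene, WT and Qa-2-). Same-numbered libraries had a correlation of deviations of -0.37, and crossed libraries of 0.37. With 2 libraries in a group these are the same value with its sign turned, so they cannot tell whether the numbers pair the libraries. In simulated counts for this comparison with 14492 genes, 10 of 100 genes at a log2 size of 1 and 80 of 100 at a size of 2 were called, together with 13 unchanged genes. In the real counts H2-Q6, with a log2 fold change of 9.59, had an adjusted p of 0.228 in edgeR and of 2.68e-29 in DESeq2. The simulated shares therefore cannot be taken as the rate at which edgeR calls true differences in these libraries. Floors cover counting error only.

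The member genes and all lists were chosen with earlier results of these data known, and family shares, library directions and promoter motifs were added after values were seen. Values in every library are given for genes at an unadjusted p under 0.05, the 2 highest TPM of each role, and the 5 genes at either end of the log2 fold changes, and other lists name from the 3 at either end. The values of 1 member and of 1 gene of the other lists are not reported here, though both enter the counts.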

Additional observations from a re-analysis of the deposited data

How the results depend on the processing

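Over all genes, 0 were called by edgeR (2199 at an unadjusted p under 0.05), against 700 by DESeq2, 61 without a filter, 2 with the replicate block and 0 to 93 when each library was left out in turn (4 without WT replicate 1, 93 without WT replicate 2). A lone library of a group is then assumed to vary like the others. Of the 43 genes DESeq2 called 3, and leaving out a library gave 0 to 1, the 1 being Cacna1g without WT replicate 2. Of the other calcium genes DESeq2 called 3. The number of members at an unadjusted p under 0.05, 9 without a block, was 7 with the replicate block, beside 9.18% of all genes, 15 with the crossed replicate block (WT replicate 1 with Qa-2- replicate 2), chosen after seeing the data, when 25.0% of all genes passed, and 2 to 12 with a library left out, beside 5.64% to 15.8% of all genes. The replicate block changed no call among the members. The median log2 fold change of the members ran from -0.31 to 0.12 with a library left out, and was -0.15 with library totals alone, which moved the median of all genes from 0.012 to -0.083. With library totals alone Atp2a3 went from 0.06 to -0.04. With each library left out in turn, the log2 fold change ran from -0.07 to 0.44 for Cacnb3, -0.27 to 0.86 for Atp2b4, -0.35 to 0.03 for Itpr1, -0.23 to 0.64 for Cacng7 and -0.05 to 0.13 for Atp2a3. In each case the cause was not tested. The other log2 fold changes of the 24 genes followed through all settings kept their direction. Depth sets a floor of 0.0731 to 0.0901 CPM, under which no level can be read.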

Other observations

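Markers of further cell types were summed as CPM in each library, given here with the 2 WT libraries before the 2 Qa-2- libraries. The sums were 154 and 310 against 174 and 141 for skeletal muscle (Myh1 and Myh4 at or under the floor), 4840 and 3830 against 2710 and 1890 for decidual stroma, 554 and 904 against 559 and 435 for pericytes, 302 and 415 against 332 and 245 for leukocytes, 0.275 and 20.2 against 3.56 and 0.143 for trophoblast, 8.51 and 52.9 against 563 and 31.3 for yolk sac, and 365 and 724 against 116 and 75.8 for erythroid cells. Most of the skeletal muscle sum was Acta1 (130 and 262 against 117 and 101 CPM). Of the 5 skeletal muscle markers that passed the filter, 4 had a negative log2 fold change. The nerve and glia markers summed to at most 16.4 CPM, in WT replicate 1, and to 7.93 and 6.73 CPM in the Qa-2- libraries.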
